A study of Homo sapiens with 12 samples.

Results

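The comparison described here is the loss of glutamine from MDA-MB-231 cells that still had glucose. MDA-MB-231 is an established human breast adenocarcinoma line, and the study kept it in 4 defined media and sequenced total RNA after 36 h. The glucose-only cells had 25 mM glucose and no glutamine, and the full-medium cells had 25 mM glucose and 4 mM glutamine; each medium gave 3 libraries, lettered A, B and C. The glutamine-only cells (4 mM glutamine, no glucose) and the deficient cells (neither nutrient) gave 3 libraries each and serve here to show what the same loss does without glucose. All media held 3% fetal bovine serum, which can bring amino acids of its own, and all cells had been grown before in high-glucose balanced salt solution with 10% serum. A gene was kept when 3 or more of the 12 libraries had it at 10 normalized counts or higher, and 9270 genes met this, of 32493 that had a read and 63187 listed.

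The libraries held 875033 to 994376 assigned reads in glucose-only cells and 945287 to 1429807 in full-medium cells. At this depth the share of genes past the test threshold was 12.2% among genes with a mean under 20 and 45.3% among those with a mean of 100 to 500, and the median SE of the log2 change was 0.34 and 0.11 in these bands of level. The labels call the cells epithelial and leave unsaid if libraries A, B and C of a medium were grown apart, so the p-values measure the spread between libraries, which may be technical. Of 6 markers of mesenchymal breast cancer lines 5 (VIM, AXL, CD44, CAV1 and PLAU) were above 10 in all these libraries. TGFBI was at 7.23, 9.43 and 7.06 in glucose-only and 31.1, 35.7 and 36.7 in full-medium cells. The 6 had summed normalized counts of 1941 to 2008 in glucose-only and 2087 to 2247 in full-medium cells. Of 12 luminal epithelial markers 6 stayed under 10, but others were well expressed. The 12 summed to 467 to 517 in glucose-only and 579 to 599 in full-medium cells. KRT18 averaged 268 and 243 in these media, and KRT8 averaged 115 and 157. All 9 fibroblast markers and all 11 blood cell markers stayed under 10. Among 7 endothelial markers the highest value was 19.7, and among 7 adipocyte markers it was 31.2.

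Glutamine is the most abundant amino acid in plasma and culture media, and it donates nitrogen for nucleotides, hexosamines and other amino acids and carbon for the tricarboxylic acid cycle. When amino acids run short, uncharged transfer RNA activates the kinase GCN2, phosphorylation of the initiation factor eIF2 slows translation, and the transcription factor ATF4 is made and turns on genes of amino acid import, synthesis and transfer RNA charging. This chain is known as the integrated stress response.

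Of the 9270 genes, 2124 (22.9%) differed between glucose-only and full-medium cells at a Benjamini-Hochberg adjusted p under 0.05 in limma, 875 of them higher (9.44%) and 1249 lower (13.5%) in glucose-only cells. A change of 2-fold or more was found for 240 of the higher and 408 of the lower genes. The median log2 change over all genes was -0.03. Scaling all libraries to equal totals in place of the authors' size factors moved that median by -0.21 and left 396 genes higher and 2154 lower, and quantile normalization put 50.9% of the calls in the higher direction, against 41.2% as deposited. The groups of genes described next are read against these shares.

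Effector genes of ATF4 were among the genes that rose furthest. TRIB3 (chr20:380760-397559, GRCh38.p14), a pseudokinase that restrains ATF4 itself, had 142, 152 and 143 normalized counts in glucose-only cells, against 10.6, 17.9 and 11.9 in full-medium cells. Its log2 change, on the scale of log2(normalized count + 1) used throughout, was 3.38 ± 0.14 (SE) with an adjusted p of 1.08e-16, and the lowest glucose-only library lay far above the highest full-medium library. RBCK1, a subunit of the linear ubiquitin ligase that lies next to TRIB3 on chromosome 20, had 206, 180.2 and 186 in glucose-only cells, against 36.4, 29.1 and 41.3 in full-medium cells. The sensor ERN1, which splices the XBP1 messenger, had 74.7, 111 and 99.9 against 15.9, 11.3 and 12.8. None of these groups overlapped, but this was required of genes with the largest changes and held for 37.9% of all tested genes. GDF15, a secreted stress cytokine, averaged 23.5 ± 0.998 (SD, n = 3) in glucose-only and 2.2 ± 1.38 in full-medium cells, and CHAC1, which degrades glutathione, averaged 23.5 ± 6.78 and 2.7 ± 2.02. The peptide hormone gene ADM2 had 10.8, 21.0 and 15.3 in glucose-only cells and 0, 0.94 and 0 in full-medium cells; with so few reads in full medium no fold is given (adjusted p = 3.96e-07).

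**Figure D1:**
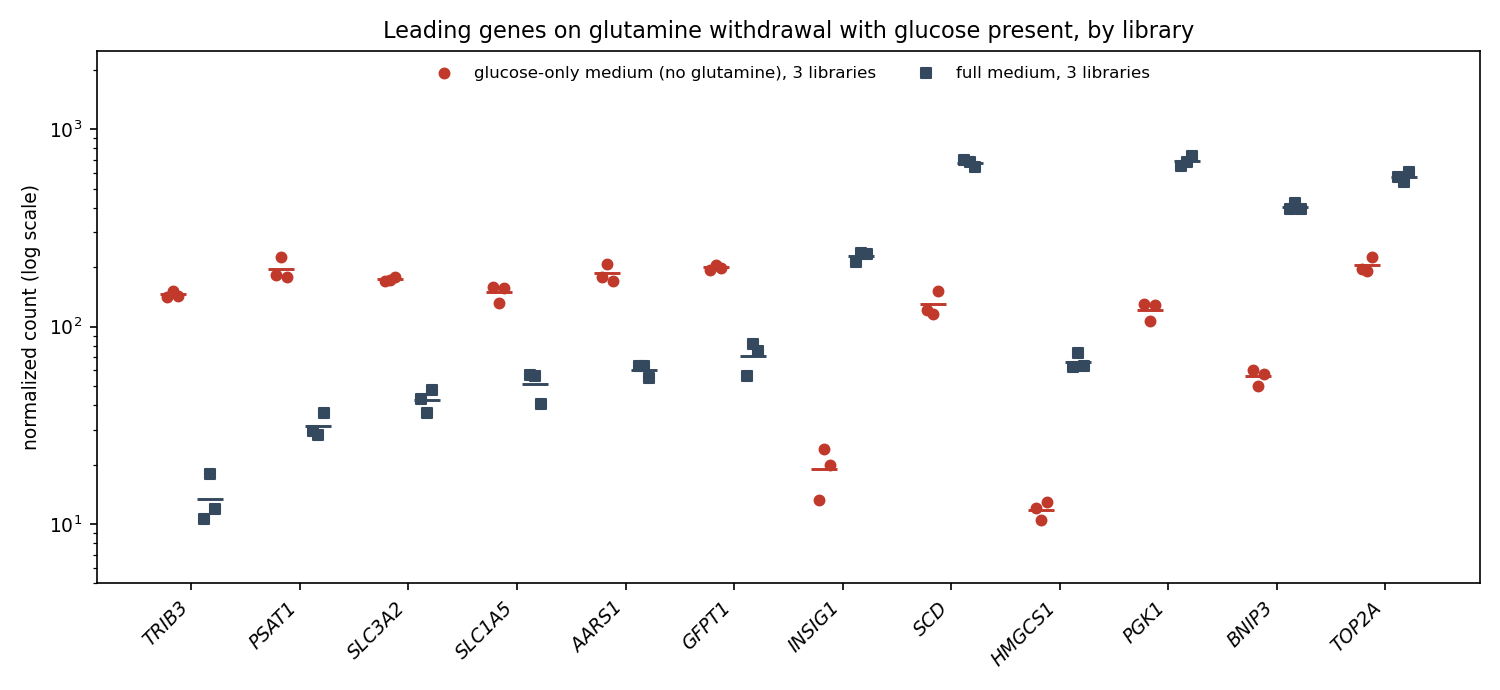
Normalized counts of 12 genes in each library on a logarithmic axis, with glucose-only libraries (circles, left) and full-medium libraries (squares, right) and a line at each mean. For every gene drawn the glucose-only and full-medium libraries do not overlap, with TRIB3 at 142 to 152 against 10.6 to 17.9 and INSIG1 at 13.2 to 24.1 against 212 to 236. Many of these genes were chosen with this as a condition, and 37.9% of all tested genes had no overlap.

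Among 20 tested effector genes of this programme, 8 rose and 1 fell, with a median log2 change of 0.52, against -0.03 over all genes. The effector that fell was NDRG1, which is also a hypoxia target and is described with those genes. Among the transcription factors, kinases and phosphatase subunits of the response 8 of 19 rose and 2 fell (median 0.60). ATF4 itself rose little, at 124, 129 and 145 in glucose-only and 78.0, 85.5 and 88.1 in full-medium cells (log2 change 0.65 ± 0.11, adjusted p = 6.16e-05). Its partners changed more. CEBPG, a dimer partner of ATF4, had 62.6, 72.3 and 49.4 against 19.2, 18.8 and 17.4 (log2 change 1.67 ± 0.16), CEBPB rose by a log2 change of 1.31 ± 0.16, and DDIT3, the pro-apoptotic factor CHOP, averaged 25.7 ± 3.05 in glucose-only and 4.92 ± 3.2 in full-medium cells. DDIT3 shares 39.6% of its exonic bases with other genes in the annotation, mostly on the other strand, and the strand setting of the counting is not given in the sources used here, so its level is uncertain. PPP1R15A, the phosphatase subunit that reverses eIF2 phosphorylation, had 167, 213 and 166 in glucose-only and 52.2, 46.1 and 60.5 in full-medium cells. The messengers of the 4 eIF2 kinases did not rise: EIF2AK4, which encodes GCN2, had a log2 change of -0.07 and EIF2AK3 one of -0.05, neither past the threshold, and EIF2AK1, the haem-regulated kinase, fell (-0.65).

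Amino acid transporters rose as a group, with 12 of 22 higher, 2 lower and a median of 0.67. SLC3A2 (chr11:62856109-62888860), the shared heavy chain of several exchangers, had 171, 173 and 178 in glucose-only cells and 43.0, 36.7 and 47.7 in full-medium cells (log2 change 2.02 ± 0.11, adjusted p = 1.24e-14). Its light chain SLC7A5, which imports leucine in exchange for glutamine, had 149, 166 and 167 against 83.97, 62.04 and 44.95. The other light chain SLC7A11, which imports cystine and exports glutamate, averaged 242 ± 18.3 and 106 ± 13.8. Both chains of these exchangers were thus higher in every glucose-only library than in any full-medium library. SLC1A5, a carrier of glutamine and other neutral amino acids, had 159, 132 and 158 in glucose-only cells, against 56.9, 56.4 and 40.4 in full-medium cells (log2 change 1.54 ± 0.13). The related carrier SLC1A4 (2.15), the glycine carrier SLC6A9 (1.501) and the sodium-coupled glutamine carriers SLC38A1 (0.83) and SLC38A2 (0.39) also rose. The exceptions were SLC1A1, a high-affinity glutamate carrier (-1.72), and SLC6A6, the taurine carrier, which had 52.998, 46.1 and 49.4 against 126, 93.1 and 99.1.

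Enzymes that make non-essential amino acids followed, with 7 of 16 higher and 2 lower (median 0.63). PSAT1 (chr9:78297125-78330093), which passes the amino group of glutamate into serine synthesis, had 182, 226 and 178 in glucose-only and 29.8, 28.2 and 36.7 in full-medium cells (log2 change 2.59 ± 0.14, adjusted p = 4.72e-14). CTH, which makes cysteine, averaged 28.3 ± 3.75 and 4.91 ± 2.03, and the mitochondrial serine hydroxymethyltransferase SHMT2 had 207, 200.1 and 195 against 86.6, 107 and 79.8. PHGDH, the first enzyme of serine synthesis, was read at 14.5, 4.19 and 10.6 against 3.31, 3.76 and 0.917, too low for a firm value, and its call (adjusted p = 0.0331) was lost with quantile normalization, in DESeq2 and without glucose-only library A or C or full-medium library C. ASNS, the asparagine synthetase that uses glutamine, did not pass the filter: it was listed at 4.82, 10.48 and 12.9 in glucose-only and at 2.65, 1.88 and 0.917 in full-medium cells, and since it shares 44.6% of its exonic bases with another gene on the same strand, its level is uncertain. Among folate enzymes 2 of 11 rose, the mitochondrial MTHFD2 (1.02) and MTHFD1L (0.74), and 1 fell.

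Cytosolic aminoacyl-tRNA synthetases, which charge transfer RNAs, rose in 10 of 20 cases and fell in 1 (median 0.57). AARS1, for alanine, had 179, 209 and 170.5 in glucose-only and 63.5, 63.0 and 55.0 in full-medium cells, and SARS1, for serine, had 166, 185 and 183 against 65.5, 68.6 and 69.7. WARS1, for tryptophan, had 119, 108 and 122 against 49.6, 40.4 and 39.4. All 3 lay more than 2-fold above full medium. The synthetase for glutamine itself, QARS1, averaged 72.0 ± 10.3 and 77.2 ± 4.19 and did not pass the test (log2 change -0.11 ± 0.13). Of 15 mitochondrial synthetases 1 rose and 1 fell.

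A CEBP-ATF response element, searched as TGATGNAA on both strands in the 300 bases around each RefSeq start, was present in 4 of 17 synthetase promoters (23.5%), in 3 of 19 transporter promoters (15.8%) and in 2 of 17 promoters of the response's factors (11.8%). It was present in 1 of 14 promoters of the ATF4 effectors (7.14%) and 1 of 10 of amino acid synthesis (10%). In a window of 200 bases from 150 before the start, the synthetases had 3 matches and the transporters 3, and the response's factors, the effectors and amino acid synthesis had 0. In the 300 bases it was present in 1.67% of the promoters of all tested genes and in 2.73% of those of genes that rose. A match is only a match of letters, and ATF4 elements outside the window are not counted. The stretch before the AARS1 start, chr16:70289657-70289756 of GRCh38.p14 on the minus strand, is shown because AARS1 is the synthetase with the largest change, with the match in capitals; it begins 187 bases before the start.
AARS1: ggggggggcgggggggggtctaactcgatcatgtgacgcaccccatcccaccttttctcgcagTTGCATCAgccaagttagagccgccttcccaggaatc

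Enzymes that use or release glutamine and glutamate showed no shared direction, with 5 of 20 higher and 2 lower (median 0.09, and -0.12 with equal totals). The 5 included PSAT1, GFPT1, GPT2 and PFAS, and the count was 3 with equal totals and without glucose-only library C and 2 in DESeq2 and without full-medium library C. GFPT1, which spends glutamine to open the hexosamine pathway, had 194, 206 and 199 in glucose-only and 56.2, 81.8 and 75.2 in full-medium cells (log2 change 1.49 ± 0.12, adjusted p = 2.24e-10). OGT, which attaches the pathway's product to proteins, had 235, 237 and 173 against 128, 140.1 and 126. GFPT1, OGT and GNPDA1 were the 3 genes that rose among 12 of the hexosamine list, and none fell (1 with equal totals). Glutamine synthetase, GLUL, was lower: 38.5, 41.9 and 40.0 against 65.5, 67.7 and 66.0 (log2 change -0.71 ± 0.14, adjusted p = 0.000436). The pyrimidine enzyme CAD (log2 change 0.23), CTPS1 (-0.12) and the purine enzyme PPAT (-0.16), which all consume glutamine, did not pass. In nucleotide synthesis the genes past the threshold were mostly lower, 3 of 15 in the purine list with 1 higher and 6 of 16 in the pyrimidine and deoxynucleotide list with none higher (1 in edgeR). They included the salvage enzyme HPRT1, which averaged 20.7 ± 4.35 and 52.4 ± 9.91, thymidine kinase TK1, at 24.8 ± 2.56 and 90.2 ± 13.3, and the ribonucleotide reductase subunit RRM2, at 44.7 ± 6.49 and 106 ± 2.4.

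**Figure D2:**
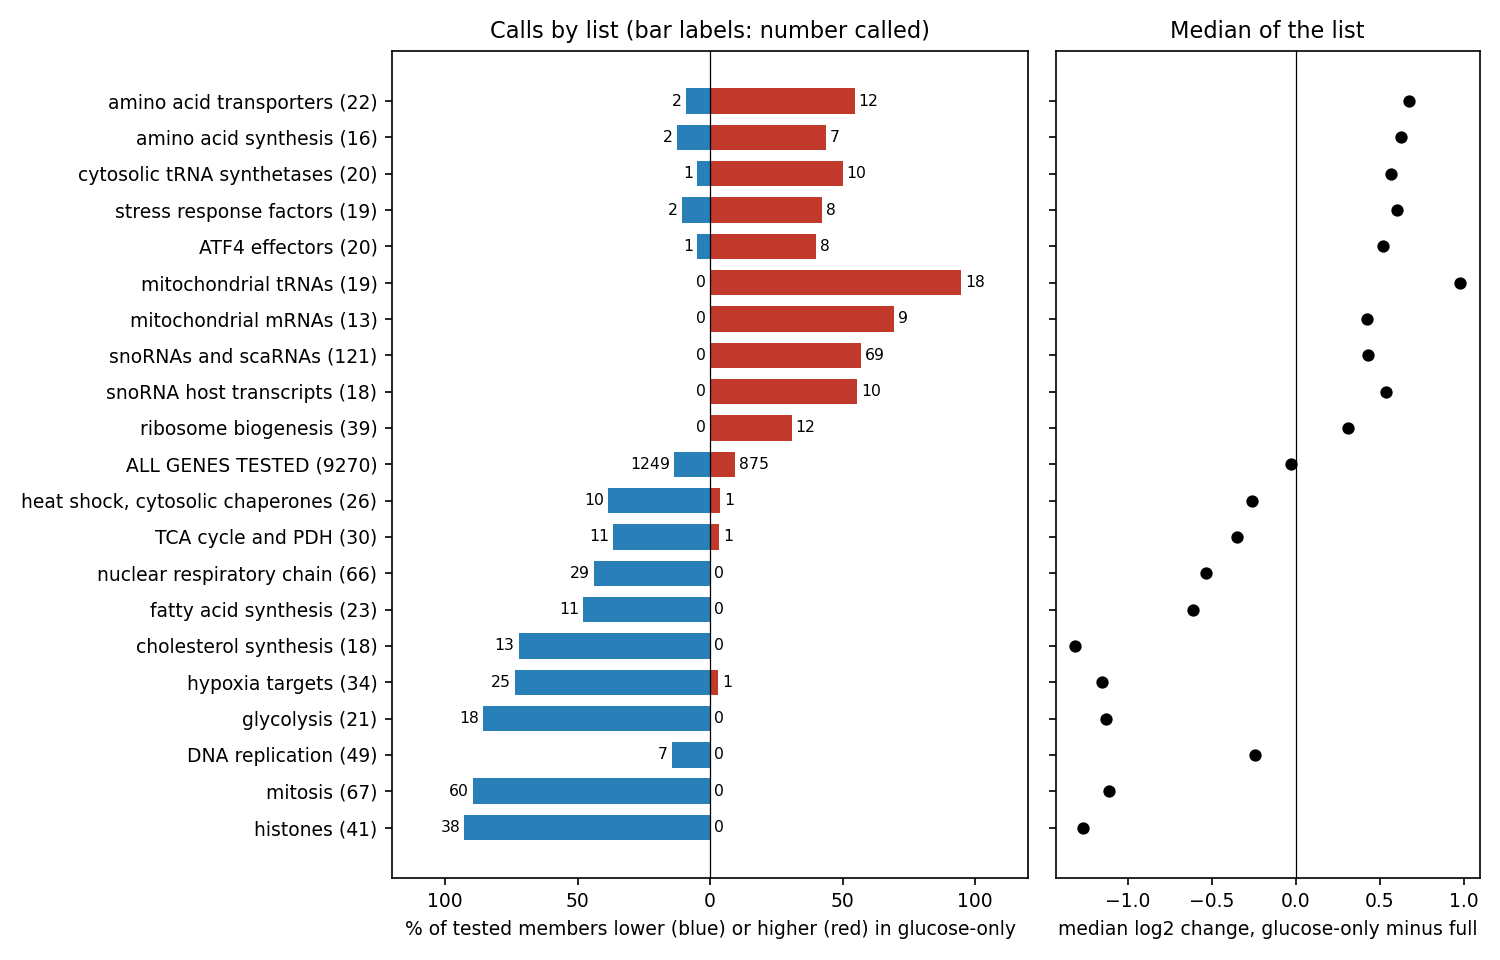
Left, percent of the tested members of 20 gene lists and of all 9270 genes called lower (blue) and higher (red) in glucose-only against full-medium cells, with the numbers of genes. Right, the median log2 change of each list; mitosis (60 of 67 lower), histone (38 of 41 lower) and glycolysis genes (18 of 21 lower) were mostly lower, and mitochondrial transfer RNAs (18 of 19) mostly higher.

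Genes of sterol and fatty acid synthesis fell. The SREBP transcription factors drive these genes when membrane sterol is low, and INSIG1 holds SREBP in the endoplasmic reticulum when sterol is plentiful. INSIG1 (chr7:155297878-155310235) had 13.2, 24.1 and 19.99 in glucose-only cells, against 212, 236 and 233 in full-medium cells (log2 change -3.54 ± 0.16, adjusted p = 3.82e-16). The sterol carrier STARD4 had 8.43, 11.5 and 8.23 against 61.5, 64.9 and 72.5. For both genes the groups were far apart. Of 18 cholesterol synthesis enzymes 13 fell and none rose (median -1.31), and the other 5, PMVK, GGPS1, MVD, MVK and HSD17B7, had negative log2 changes that did not pass. HMGCS1, the first enzyme committed to the pathway, had 12.04, 10.48 and 12.9 against 62.8, 73.3 and 63.3. The isomerase IDI1 averaged 16.2 ± 2.59 and 99.3 ± 21.1, and DHCR7, which acts at the end of the pathway, averaged 10.1 ± 3.31 and 69.1 ± 3.46. Genes at both the start and the end of the pathway were thus lower.

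Lipid genes beyond sterol synthesis fell less evenly. SCD (chr10:100347233-100364826), the stearoyl-CoA desaturase, had 122, 116 and 152 in glucose-only and 697, 683 and 642 in full-medium cells (log2 change -2.38 ± 0.10, adjusted p = 1.08e-16), and the desaturase FADS2 had 34.9, 33.5 and 37.6 against 197, 196 and 167. Fatty acid synthase, FASN, had 112, 124 and 111 against 283, 297 and 264. In the fatty acid list 11 of 23 fell and none rose (median -0.61), with ACLY (-0.77) and the mitochondrial citrate carrier SLC25A1 (-1.52) among them. Among sterol sensing, uptake and export genes 8 of 21 fell and none rose, but with quantile normalization or protein-coding size factors 4 rose and 7 fell, and with equal totals 12 fell. SREBF2, the factor that mainly drives sterol genes, had 34.9, 44.0 and 47.0 against 115.05, 105 and 94.5, whereas SREBF1 averaged 39.5 ± 10.6 and 56.5 ± 8.8 with overlapping libraries. The SREBF1 call (adjusted p = 0.0294) was lost without a filter, with quantile normalization, with protein-coding size factors, with these 2 media fitted alone and in DESeq2. It was also lost without glucose-only library A or B or full-medium library A or B. The exporter ABCA1 (0.70) and the SREBP escort SCAP (0.50) did not pass.

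The sterol regulatory element, searched as TCACNCCAC, was present in 0 of 14 cholesterol synthesis promoters and in 1.23% of all promoters. Of 18 promoters in the sterol sensing list 1 held it, that of SREBF2, shown here as the stretch chr22:41832901-41833000 on the plus strand with the match in capitals. These letters are a strict form of the element, and their absence says nothing of SREBP binding.
SREBF2: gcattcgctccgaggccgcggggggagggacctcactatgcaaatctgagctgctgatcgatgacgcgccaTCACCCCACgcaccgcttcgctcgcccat

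Genes of glycolysis and targets of the hypoxia factor HIF1A fell together although glucose was present. HIF is held down in air by prolyl hydroxylases, which use oxygen and 2-oxoglutarate, and it drives glucose uptake, glycolysis and adaptation to low oxygen. Of 21 glycolysis genes 18 fell and none rose (median -1.13). PGK1 (chrX:78104248-78129295), which makes the first ATP of the pathway, had 130.1, 107 and 129 in glucose-only and 655, 681 and 730.2 in full-medium cells (log2 change -2.49 ± 0.11, adjusted p = 4.34e-16). TPI1 had 153, 178 and 141 against 676, 687 and 677, and the glucose importer SLC2A1 had 77.1, 95.4 and 76.4 against 194, 179 and 202. PFKFB4, which sets the level of a glycolysis activator, averaged 8.61 ± 2.83 and 53.2 ± 2.56, and PGM1, which links glycogen to glycolysis, averaged 34.6 ± 7.44 and 143 ± 9.66. The libraries of each of these genes stood apart by more than 1.5-fold. ALDOA, PFKM and PFKFB2 did not pass, and LDHA was listed at 0 in all glucose-only libraries and in 2 of 3 full-medium libraries, so nothing can be read from it.

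Of 34 tested hypoxia targets outside glycolysis 25 fell and 1 rose (median -1.15). BNIP3 (chr10:131967684-131981923), a mitophagy receptor, had 60.2, 50.3 and 57.6 in glucose-only and 395, 423 and 395 in full-medium cells (log2 change -2.83 ± 0.12, adjusted p = 1.08e-16). NDRG1 had 59.0, 68.1 and 77.6 against 325, 331 and 272. The prolyl hydroxylase EGLN3, itself a HIF target, had 1.2, 1.05 and 2.35 against 21.8, 31.96 and 31.2. Collagen-modifying enzymes were also lower, with P4HA1 at 36.1, 34.6 and 29.4 against 143, 121 and 127 and PLOD2 at 65.0, 63.9 and 44.7 against 155, 165 and 145. PDK1, which keeps pyruvate out of mitochondria, averaged 19.5 ± 5.02 and 73.2 ± 4.15. The exception was VEGFA, the angiogenic factor: it had 326, 388 and 357 in glucose-only cells, against 234, 261 and 236 in full-medium cells (log2 change 0.55 ± 0.10, adjusted p = 0.000148). The messenger of HIF1A had 242, 293 and 273 against 288, 260.4 and 307, overlapping and not past the test (log2 change -0.08 ± 0.11). EPAS1, which encodes HIF2A, averaged 38.0 ± 7.51 and 24.5 ± 5.99. Its call (adjusted p = 0.0343) was lost without a filter, with equal totals, with these 2 media fitted alone and in DESeq2. It was also lost without glucose-only library B or C or full-medium library A or C.

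Among all 43 tested 2-oxoglutarate-dependent dioxygenases 10 fell (23.3%, against 13.5% of all genes) and 1 rose. Their median of 0.03 became -0.17 with equal totals, where 13 fell and none rose, so no direction is read for the list as a whole. Of the 10 that fell as deposited, EGLN3, P4HA1, P4HA2, PLOD1, PLOD2 and KDM3A are also in the hypoxia list. The other 4 were TET1, which oxidises methylcytosine (-1.30), the RNA demethylase ALKBH5 (-0.50), the aspartyl hydroxylase ASPH (-0.54) and the histone demethylase KDM5B (-0.37).

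The core of the hypoxia response element, searched as ACGTG, was present in 15 of 25 promoters of the hypoxia targets (60%), in 7 of 19 glycolysis promoters (36.8%) and in 27.6% of all promoters; genes that fell had it in 27.5%. Where it reads CACGTG it is also an E-box. The core was not particular to lists that fell. It was present in 18 of 32 ribosome biogenesis promoters (56.2%), a list with 12 of 39 genes higher and none lower. The stretches before the starts of BNIP3 (chr10:131982032-131982131, minus strand), PGK1 (chrX:78103998-78104097, plus strand) and P4HA1 (chr10:73096928-73097027, minus strand) are shown as leading genes of the 2 lists with a match, in capitals; that of BNIP3 is a palindrome that matches on both strands, and PGK1 has 2 matches.
BNIP3: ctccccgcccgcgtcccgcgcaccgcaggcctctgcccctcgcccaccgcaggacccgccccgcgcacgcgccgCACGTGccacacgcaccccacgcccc
PGK1: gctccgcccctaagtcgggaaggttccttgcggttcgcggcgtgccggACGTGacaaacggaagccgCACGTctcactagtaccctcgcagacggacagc
P4HA1: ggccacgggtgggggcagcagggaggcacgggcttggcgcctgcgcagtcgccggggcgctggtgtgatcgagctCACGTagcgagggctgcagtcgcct

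In the mitochondrion the nuclear and the mitochondrial genes went opposite ways. Of 66 nuclear respiratory chain and ATP synthase genes 29 fell and none rose (median -0.54; 48 fell with equal totals, and 1 rose with quantile normalization), led by the cytochrome oxidase subunit COX8A at 77.1, 78.6 and 99.9 in glucose-only and 198, 222 and 181 in full-medium cells. COX8A shares 34.5% of its exonic bases with another gene on the same strand, so its level is uncertain. Of 30 genes of the tricarboxylic acid cycle, pyruvate dehydrogenase and anaplerosis 11 fell and 1 rose. The count of 11 was 5 in DESeq2, 7 without glucose-only library B and 6 without full-medium library B. Citrate synthase, CS, had 49.4, 49.2 and 59.97 against 101, 94.9 and 82.6 (log2 change -0.80 ± 0.14). The 3 glucose-only libraries were below all 3 of full medium.

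Transcripts of the mitochondrial genome rose. Of 19 mitochondrial transfer RNAs 18 were higher (median 0.98), with MT-TR, for arginine, at 8357, 8549 and 10046 in glucose-only and 4128, 3901 and 2496 in full-medium cells (log2 change 1.39 ± 0.19, adjusted p = 4.11e-06). Of 13 mitochondrial messengers 9 rose and none fell (median 0.42), with MT-ND2, a complex I subunit, at 2367, 2593 and 2683 against 1511, 1911 and 1668. With equal totals 17 transfer RNAs and 3 messengers still rose, and with quantile normalization 14 and 4, so the transfer RNAs held under each scaling and most messengers did not. Small nucleolar and Cajal body RNAs, which guide RNA modification, rose in 69 of 121 cases with none lower (4 lower with quantile normalization; median 0.43), and 10 of 18 host transcripts that carry them in their introns rose, with ZFAS1 at 112, 108 and 109 against 62.8, 64.9 and 56.0. The count of 69 was 38 with equal totals, 37 without glucose-only library C and 38 without full-medium library C. ZFAS1 shares 46.9% of its exonic bases with other genes, SNORD12 among them, and the mitochondrial genes have near-identical copies in the nuclear genome, so how reads were split between these is uncertain. Among 20 listed long noncoding RNAs 9 rose and none fell (7 rose and 3 fell with equal totals, and 1 fell without glucose-only library B), led by GABPB1-AS1 at 139.7, 144 and 161 against 44.3, 39.5 and 39.4.

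The make-up of the libraries, taken from the same reads, shows this shift in part. Nuclear protein-coding genes took 42.5, 42.9 and 38.4% of reads in glucose-only and 51.4, 49.5 and 56.8% in full-medium cells. Mitochondrial transfer RNAs took 14.4, 14.2 and 15.7% in glucose-only and 9.63, 9.23 and 6.80% in full-medium cells. In both classes library C was the most extreme of its medium, and the groups did not overlap. Long noncoding RNAs averaged 7.59 ± 0.167% and 6.57 ± 0.577% (SD, n = 3) and mitochondrial ribosomal RNA 12.2 ± 1.09% and 9.54 ± 0.939%. With 3 against 3 libraries the smallest two-sided p of an exact permutation test is 0.1, which each of these 4 classes and the mitochondrial messengers reached. The shares are of the reads of a library, so a larger share of 1 class is a smaller share of the others.

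**Figure D3:**
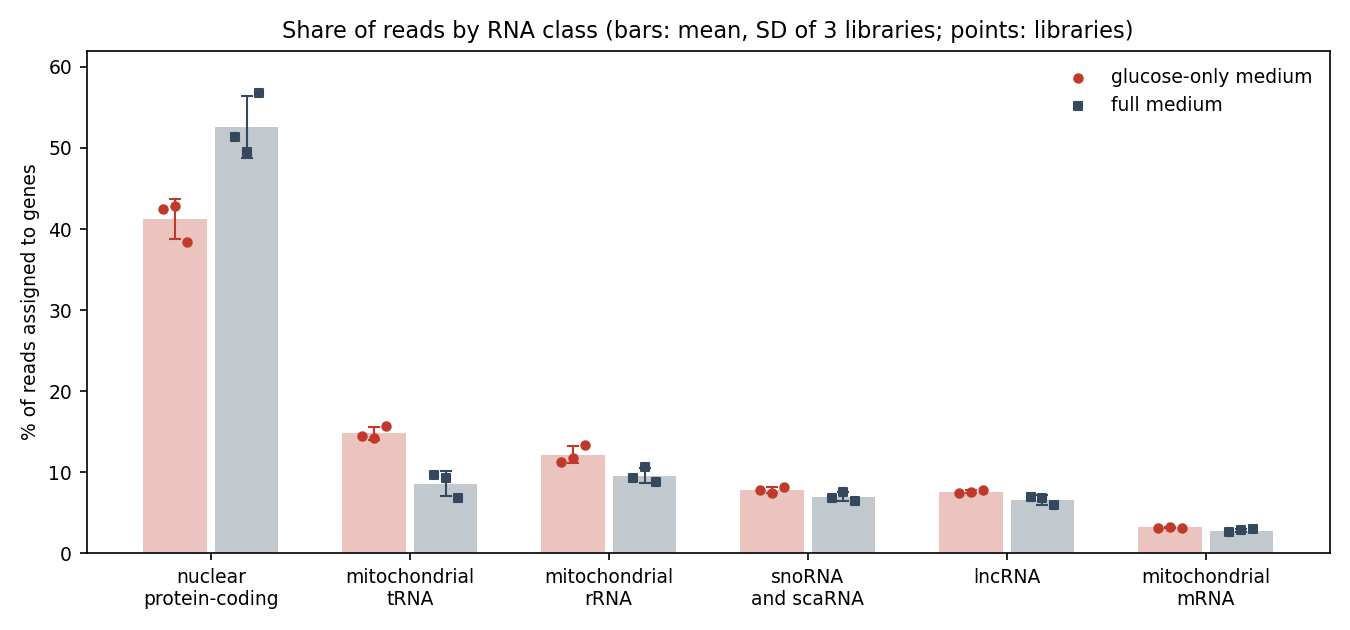
Percent of assigned reads in each RNA class, with bars at the mean of 3 libraries, error bars of 1 SD and points for the libraries, glucose-only left of full medium. Nuclear protein-coding reads were 41.3 ± 2.45% in glucose-only and 52.6 ± 3.81% in full-medium cells, and mitochondrial transfer RNA reads 14.8 ± 0.81% and 8.56 ± 1.53%.

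Genes of cell division fell nearly throughout. Of 67 mitosis and chromosome segregation genes 60 fell and none rose (median -1.11), and of 41 replication-dependent histone genes 38 fell and none rose (median -1.27). The kinesin KIF20A had 20.5, 16.8 and 19.99 in glucose-only and 71.4, 84.6 and 93.6 in full-medium cells. DNA topoisomerase TOP2A had 196, 192 and 226 against 575, 540.5 and 605 (log2 change -1.48 ± 0.10, adjusted p = 4.47e-12), and the proliferation marker MKI67 had 249, 247 and 221 against 546, 524 and 527. The histone H3C3 had 230.1, 217 and 223 against 854, 1049.9 and 908, although reads of near-identical histone genes may be split between copies. In these bulk libraries fewer cycling cells and less RNA per cycling cell cannot be told apart. Replication origin and fork genes fell in only 7 of 49 cases, among them PCNA, the sliding clamp, at 46.7 ± 4.76 and 81.2 ± 13.1, and in 18 with equal totals and 4 in DESeq2; most of the list, including MCM2 (-0.06) and MCM7 (0.14), did not pass. Of the G1 regulators CCND2 rose, at 67.5, 57.6 and 69.4 against 26.4, 31.0 and 25.7, CCND1 did not pass (-0.10 ± 0.09), and the CDK inhibitor CDKN1A was lower, at 57.8, 63.9 and 61.1 against 94.6, 102 and 97.2.

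The cell cycle gene homology region, searched as TTTGAA, was found in 34 of 54 mitosis promoters (63%), in 12 of 37 histone promoters (32.4%), in 15.8% of the promoters of genes that fell and in 10.2% of all. The CCAAT box was found in 37 of 54 mitosis promoters (68.5%) and 30 of 37 histone promoters (81.1%), against 37.1% of all. It was not particular to these lists. Promoters of endoplasmic reticulum chaperones, a list with 6 of 29 genes higher and 7 lower, held it in 21 of 27 cases (77.8%). The mitosis genes were added to the printed sets after their values were seen. The stretches before the starts of DLGAP5, a spindle protein (chr14:55191669-55191768, minus strand), GTSE1 (chr22:46296770-46296869, plus strand) and TOP2A (chr17:40418022-40418121, minus strand) are shown with matches on either strand in capitals, 2 in DLGAP5 and TOP2A and 1 in GTSE1.
DLGAP5: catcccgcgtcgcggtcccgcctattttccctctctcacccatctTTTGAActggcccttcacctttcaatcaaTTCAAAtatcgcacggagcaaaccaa
GTSE1: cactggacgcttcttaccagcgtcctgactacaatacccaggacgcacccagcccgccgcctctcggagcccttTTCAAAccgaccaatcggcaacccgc
TOP2A: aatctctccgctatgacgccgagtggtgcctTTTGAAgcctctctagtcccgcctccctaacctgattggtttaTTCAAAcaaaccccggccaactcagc

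Other stress and growth lists were mixed. MYC rose, at 85.5, 79.6 and 95.2 in glucose-only and 42.3, 49.8 and 39.4 in full-medium cells (log2 change 0.97 ± 0.12), and 12 of 39 ribosome biogenesis genes rose with none lower (median 0.31), a count that was 5 with equal totals and 6 in DESeq2. ODC1, which starts polyamine synthesis, had 85.5, 79.6 and 69.4 against 27.1, 37.6 and 33.9. Cytosolic ribosomal protein genes had 4 of 76 higher and 11 lower, and their median of -0.10 became 0.0036 with quantile normalization, so no direction is read. The endoplasmic reticulum chaperones split, with 6 of 29 higher and 7 lower. DNAJB9, a target of the ERN1 branch, had 60.2, 50.3 and 64.7 against 26.4, 19.7 and 29.4, whereas the oxidase ERO1A, a hypoxia target as well, had 94.0, 94.3 and 87.0 against 227, 235 and 248. The main chaperone HSPA5 differed little, at 309 ± 21.1 and 256 ± 15.3. Its call (adjusted p = 0.0361) was lost without a filter, with equal totals, with these 2 media fitted alone, in edgeR and in DESeq2. It was also lost without glucose-only library B or C or full-medium library A or B. Of 26 heat shock genes and cytosolic chaperones 10 were lower (6 in DESeq2) and 1 higher (none without a filter, with equal totals or in DESeq2). Changes were small, such as that of HSP90AA1, at 694, 637 and 618 against 855, 919 and 921 (log2 change -0.47 ± 0.10). TXNIP, which slows glucose uptake and reports sugar phosphates through MondoA, had 185, 195 and 174 against 116, 133 and 120.2 (log2 change 0.58 ± 0.17), a call that was lost with equal totals and without glucose-only library B or full-medium library A or C.

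Matrix and inflammatory genes fell more often than they rose. Among 45 mesenchymal, integrin and matrix genes 18 fell and 5 rose; the 18 were 8 in DESeq2, 10 with quantile normalization, 11 without a filter and 12 without either glucose-only library C or full-medium library A. Fibronectin, FN1, had 442, 426 and 454 in glucose-only and 1204, 1083 and 1118 in full-medium cells, and the protease inhibitor TIMP3 had 260.2, 263 and 252 against 695, 702 and 672. The collagenase MMP1 ran the other way, at 143, 156 and 169 against 31.1, 43.2 and 34.9 (log2 change 2.08 ± 0.12, adjusted p = 7.71e-14). Among 26 NF-kB targets and cytokines 10 fell and 1 rose, with the chemokine CXCL1 at 34.9, 25.1 and 29.4 against 89.9, 91.2 and 99.1, and among 24 interferon-stimulated genes 10 fell and 2 rose. The transcription factor SOX4 had 26.5, 29.3 and 21.2 against 109, 111 and 114.7. Among genes outside the lists, the molybdenum cofactor sulfurase MOCOS had 90.3, 81.7 and 72.9 against 20.5, 16.9 and 26.6, and PABPC1L, a poly(A)-binding protein, had 111, 96.4 and 94.1 against 31.7, 19.7 and 24.8. Neither overlapped between media, as was required of genes with the largest changes and as held for 37.9% of all tested genes.

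The same loss was then set beside glutamine loss without glucose, that is, deficient against glutamine-only cells. These groups share no library with the pair above, so the difference of the changes can be tested in the same fit. It passed the threshold for 2458 genes (26.5%), with 1020 (11%) changed more towards higher values and 1438 (15.5%) more towards lower values when glucose was present. Deficient cells differed from glutamine-only cells in 3844 genes (41.5%), of which 2000 (21.6%) were higher and 1844 (19.9%) lower. Of the 875 genes that rose with glucose present, 320 (36.6%) also rose without glucose and 134 (15.3%) fell. Of the 1249 that fell with glucose present, 500 (40%) also fell without it and 207 (16.6%) rose.

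**Figure D4:**
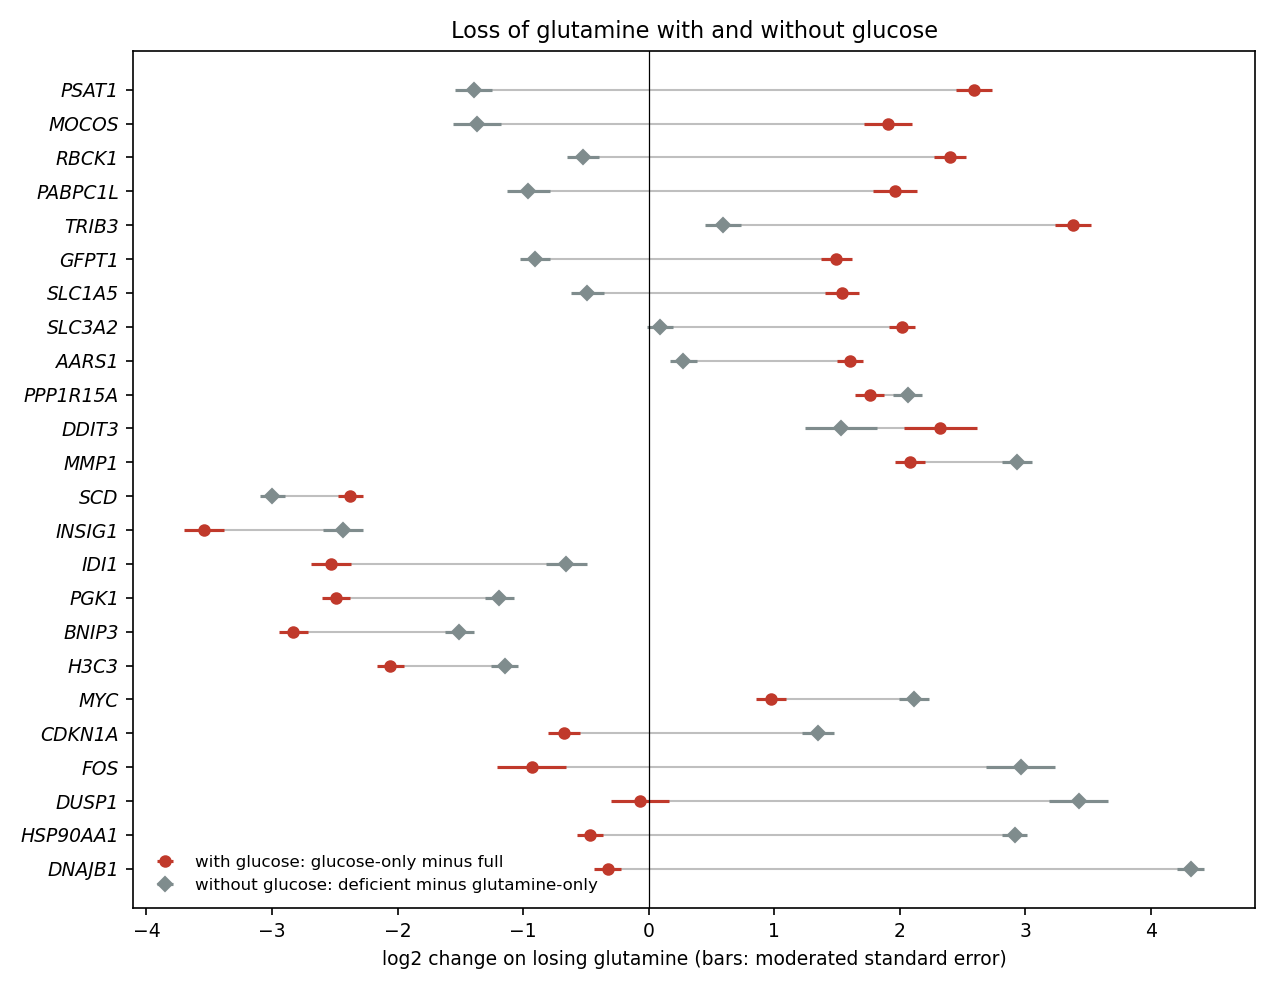
Log2 change on loss of glutamine for 24 genes, with glucose present (glucose-only minus full, circles) and without glucose (deficient minus glutamine-only, diamonds); bars are 1 SE of the limma fit. PSAT1 lies at 2.59 with glucose and -1.39 without, SCD at -2.38 and -3.00, and HSP90AA1 at -0.47 and 2.92.

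Genes of amino acid supply changed differently with and without glucose. PSAT1 changed by 2.59 with glucose and by -1.39 without it, a difference of 3.99 ± 0.20 (adjusted p = 1.43e-14). The difference was 2.79 ± 0.20 for TRIB3, 1.93 ± 0.15 for SLC3A2, 2.03 ± 0.19 for SLC1A5, 2.40 ± 0.17 for GFPT1 and 2.05 ± 0.17 for WARS1. By list, the difference was positive and past the threshold for 12 of 22 transporters with none negative, for 9 of 16 synthesis enzymes with 2 negative, and for 10 of 20 cytosolic synthetases with 2 negative. Means in glucose-only cells were 195 for PSAT1, 146 for TRIB3 and 174 for SLC3A2, against 179, 141 and 329.6 in glutamine-only cells, so the levels were already high there. PPP1R15A, in contrast, changed by 1.76 with glucose and 2.06 without, and the difference of -0.30 ± 0.16 did not pass (adjusted p = 0.174).

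**Figure D5:**
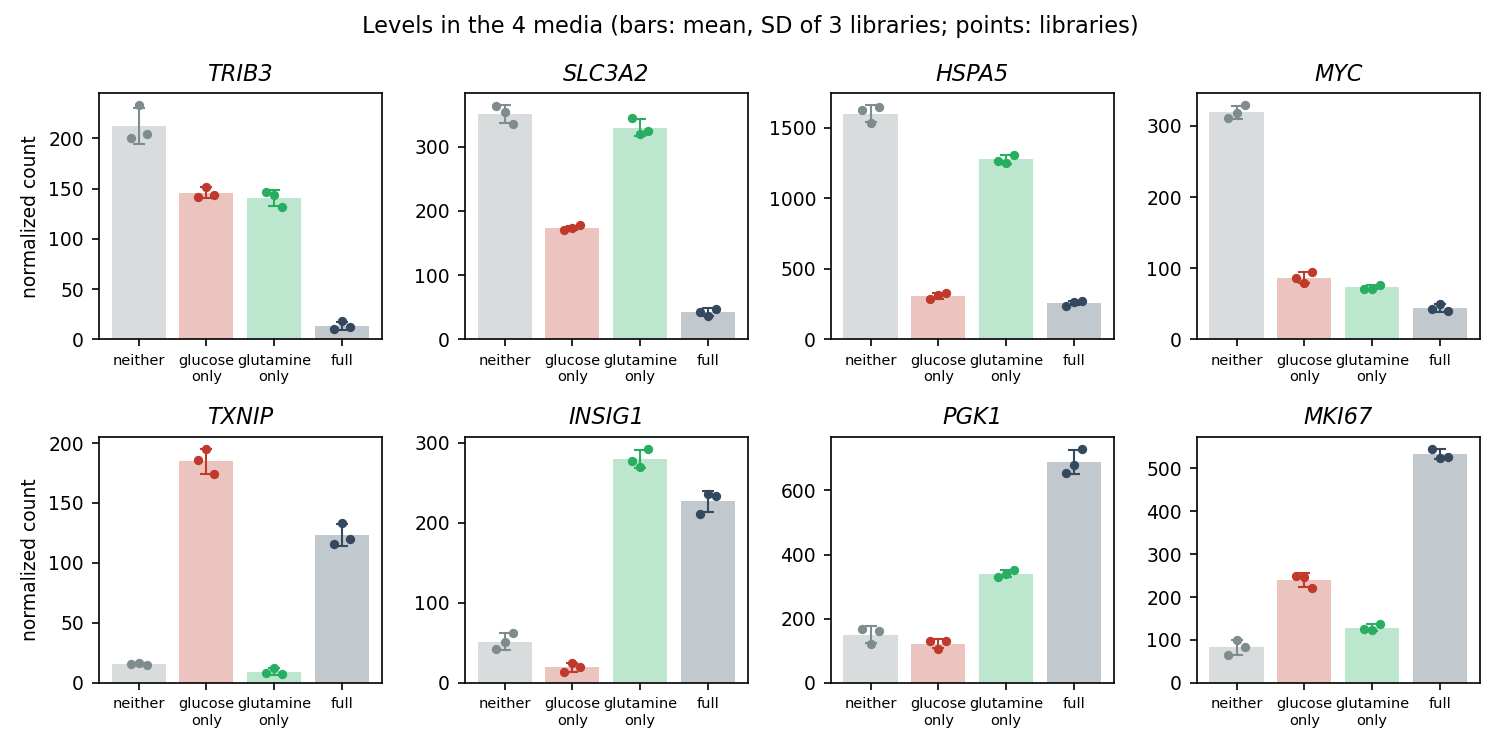
Normalized counts of 8 genes in cells with neither nutrient, glucose only, glutamine only and both, with points for libraries, means and SD. TRIB3 was low only in full medium (13.5 ± 3.87), INSIG1 was lowest in glucose-only cells (19.1 ± 5.48), and TXNIP was low in both media without glucose.

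The fall of sterol and lipid genes was found on both backgrounds. Without glucose 14 of 18 cholesterol enzymes fell on loss of glutamine (median -1.18), and the difference between backgrounds passed for 4 of 18, all in the sense of a larger fall with glucose. IDI1 was one, at -2.53 with glucose and -0.66 without (difference -1.87 ± 0.23, adjusted p = 4.04e-07). SCD fell further without glucose (difference 0.62 ± 0.14). Glycolysis fell more with glucose present, with 12 of 21 differences negative and none positive, and PGK1 changed by -2.49 with glucose and -1.19 without. Histones and mitosis genes fell on both backgrounds, with medians of -1.27 and -1.11 with glucose and -0.67 and -0.54 without, where their levels were already low. Without glucose 24 of 41 histones fell and none rose, and 35 of 67 mitosis genes fell and 2 rose. The difference was negative and past the threshold for 17 histones, with 1 positive, and for 20 mitosis genes, with 2 positive. TOP2A averaged 60.3 in deficient and 154 in glutamine-only cells, and its difference of -0.15 ± 0.14 did not pass.

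Heat shock genes rose on loss of glutamine when glucose was absent, whereas 1 of 26 rose when it was present. That count of 1 was 0 without a filter, with equal totals and in DESeq2. By list, 25 of 26 rose without glucose, with a median of 1.80, and 25 had a negative difference past the threshold. DNAJB1, a co-chaperone of HSP70, averaged 55.7 ± 8.13 in glucose-only and 69.8 ± 3.4 in full-medium cells, and 3487 in deficient and 174 in glutamine-only cells, a difference of -4.64 ± 0.15 (adjusted p = 1.69e-19). HSP90AA1 changed by -0.47 with glucose and 2.92 without. FOS changed by -0.93 with glucose and by 2.96 without glucose. The first call was lost with glucose-only and full-medium cells fitted alone, in edgeR, in DESeq2 and without glucose-only library C. Nucleolar factors showed the same pattern in part: 36 of 39 ribosome biogenesis genes rose without glucose, and 16 had a negative difference.

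Last, glucose-only cells were set against glutamine-only cells, which equals the effect of losing glutamine minus that of losing glucose because both share the full-medium control. It passed for 1234 genes (13.3%), 468 of them higher (5.05%) and 766 lower (8.26%) in glucose-only cells. The sterol and hypoxia genes were lower with glucose alone than with glutamine alone, in 10 of 18 cholesterol enzymes, 15 of 21 glycolysis genes and 23 of 34 hypoxia targets, with none higher. INSIG1 averaged 19.1 ± 5.48 in glucose-only and 279.8 in glutamine-only cells (log2 difference -3.84 ± 0.16, adjusted p = 4.21e-17), and BNIP3 averaged 56.0 ± 5.15 and 251. Endoplasmic reticulum chaperones were lower in 23 of 29 cases and higher in 1, with HSPA5 at 309 ± 21.1 and 1274. Among the leading amino acid genes PSAT1 (0.12 ± 0.14), TRIB3 (0.05 ± 0.14) and AARS1 (-0.17 ± 0.11) did not pass, and no transporter, synthesis enzyme or cytosolic synthetase was higher, with 5 of 22, 3 of 16 and 2 of 20 lower. Replication-dependent histones were higher in 30 of 41 cases, mitosis genes in 17 of 67 and replication genes in 14 of 49, with none lower. TXNIP, at the top of the genes named for this contrast, stood at 185 ± 10.5 in glucose-only and 9.36 in glutamine-only cells (log2 difference 4.19 ± 0.17, adjusted p = 4.21e-17).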

How the data were processed

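Total RNA from 12 MDA-MB-231 libraries was prepared with the SEQuoia Complete Stranded kit and ribodepletion, per the labels' protocols. FastQC, HISAT2, Subread and DESeq2 and the build GRCh38.p14 are named in the submitters' processing notes; the annotation release and the strand setting of counting are not given in the sources used here. The authors deposited 1 table of signal, read counts per gene divided by size factors. Every value was a whole multiple of what 1 read is worth (100% within 0.01 reads), so the reads were recovered: 875033 to 1473587 per library.

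Genes at 10 or more in at least 3 libraries were tested with limma 3.58.1 (trend, log2 of value + 1, 1 mean per medium, all 12 libraries, R 4.3.3) with Benjamini-Hochberg adjustment over 9270 genes. Because values are size-factor normalized, limma served as the main test in place of a count test; edgeR 4.0.16 and DESeq2 1.42.0 were run on the recovered reads. On simulated data for glucose-only against full medium with 9270 genes, 65.2% of 2-fold changes and 8 of 9070 unchanged genes were called. In the data 2124 genes were called, so far fewer genes changed in the simulation and its shares need not hold for the data. Other scalings, filters and pseudocounts, a replicate block, a fit of the 2 compared media alone and the loss of each library were tried. Genes named are the 15 highest and 15 lowest changes with a mean of at least 50 and no overlap, 6 at each end of both other contrasts, and anchor genes. Up to 4 called members per list with a mean of at least 20 were added, taken in both directions where both occurred. ADM2, CHAC1, SLC7A5, SHMT2, SLC2A1, TOP2A, GTSE1, CEBPB, PHGDH and CAD were chosen after their values were seen, as were other list members given only by a log2 change. The genes and lists were chosen with earlier results of these data known. Of the tested symbols 7261 of 9124 matched a promoter (250 bases before to 50 after the start) from RefSeq, GRCh38.p14. Normalized counts are given with the SD over 3 libraries and log2 changes with the SE of the fit. Some members of the lists are not reported here by name.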

Additional observations from a re-analysis of the deposited data

Results flagged for a closer look

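For 31 of the genes named, the change on loss of glutamine differed between cells with glucose (glucose-only minus full) and cells without (deficient minus glutamine-only) at an adjusted p under 0.05 in limma. They come from the genes with the highest and lowest change with glucose present, which is 1 term of the difference, and from both ends of the difference itself, so their number is a description and no support. The values are the first change minus the second, on the log2 scale, each from 3 libraries in each of the 4 media.

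Among genes that rose with glucose present, the difference was 2.79 for TRIB3, 1.88 for ERN1, 3.99 for PSAT1, 2.92 for RBCK1, 1.93 for SLC3A2, 2.92 for PABPC1L and 3.27 for MOCOS. It was 2.27 for GABPB1-AS1, 1.51 for CEBPG, 1.33 for AARS1, 2.03 for SLC1A5, 2.40 for GFPT1 and 2.05 for WARS1, and for MMP1, which rose further without glucose, it was -0.85.

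Among genes that fell with glucose present, the difference was -1.10 for INSIG1, -1.32 for BNIP3, -1.88 for IDI1, -1.30 for PGK1, -0.94 for NDRG1, -1.04 for TPI1 and -2.08 for SOX4. It was -0.91 for H3C3, -0.69 for PGM1 and -0.75 for TUBA1A, and SCD, which fell further without glucose, had 0.62.

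The 6 genes at the low end of the difference were stress and growth genes, chosen for that position: -4.64 for DNAJB1, -3.90 for FOS, -3.50 for HSPH1, -3.49 for DUSP1, -3.38 for HSP90AA1 and -3.31 for CKS2. All 6 rose on loss of glutamine without glucose, and none rose with glucose present.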

How the results depend on the processing

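Of the 2124 genes called, edgeR called 2229 in all with 2023 shared, and DESeq2 called 1255 (509 higher, 746 lower) with 1248 shared; DESeq2 called 1495 for the difference of the glutamine withdrawals and 604 for glucose-only minus glutamine-only. A mean of at least 50 tests fewer genes and gave 1157 calls (439 higher, 718 lower, 158 of 2-fold or more), 1249 for the difference and 801 for glucose-only minus glutamine-only. Equal totals gave 396 higher and 2154 lower, and a pseudocount of 8, which shrinks low genes, left 279 of 2-fold or more. Leaving out each library gave 1640 to 2225 calls, 664 to 905 higher, 960 to 1320 lower, 589 to 660 of 2-fold or more, 2143 to 2443 for the difference and 849 to 1327 for glucose-only minus glutamine-only.

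The library letters did not pair the samples (correlations of deviations -0.032, -0.056 and -0.159), and the fit with a replicate block called 2166 genes, 2087 of them shared.

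Some small values changed sign; the cause was not tested. DUSP1 was 0.036 in edgeR and 0.039 in DESeq2, and -0.24 to 0.25 with libraries left out. HMOX1 was 0.12 and 0.14, and -1.16 to 0.34. With quantile normalization HIF1A was 0.041, CCND1 0.073, DDIT4 0.047 and the median of cytosolic ribosomal proteins 0.0036; DDIT4 ran from -0.15 to 0.034 with libraries left out. Equal totals turned the medians of translation factors (-0.13), MondoA targets (-0.068), growth arrest genes (-0.037), autophagy genes (-0.19), YAP targets (-0.13) and keratins (-0.073). With libraries left out these medians ran from -0.0090 to 0.094 for translation factors, -0.010 to 0.19 for MondoA targets, -0.072 to 0.26 for growth arrest genes and -0.028 to 0.065 for autophagy genes. Equal totals also turned the medians of immediate early genes (-0.14), endoplasmic reticulum chaperones (-0.19) and NRF2 targets of oxidative stress (-0.19). The same held for dioxygenases (-0.17), splicing regulators (-0.22) and enzymes of glutamine and glutamate (-0.12).

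In a narrower promoter window of 200 bases from 150 before the start, all promoters held TTTGAA in 5.65%, ACGTG in 20.8%, TGATGNAA in 1.06% and CCAAT in 29.3%, and genes that fell held TTTGAA in 11%. On simulated data 23.5% of 1.5-fold changes were called. The simulation left 9070 of 9270 genes unchanged, whereas 2124 were called in the data, so this share need not hold for the data. Changes that small may still be missed, and which part of this is due to depth was not tested.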
